A study of Mus musculus with 2 samples.

Results

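The DNA damage repair genes described here are 37 mouse genes chosen by name, not by their values in these data. All 37 listed genes had at least 20 UMIs (unique molecular identifiers, each standing for a captured transcript) over both libraries, a minimum that 20174 of the 54838 genes in the files reached. They fall into 4 pathways, with 11 genes of damage signalling, 7 of end joining, 7 of recombination and 12 of excision and mismatch repair. Each member had between 211 and 5833 UMIs in all.

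Breaks through both DNA strands are sensed by the MRN complex and the kinase ATM, while stretches of single-stranded DNA activate the kinase ATR. End joining reseals broken ends directly, and developing lymphocytes use it to join antigen receptor gene segments. Recombination copies the lost sequence from a sister chromatid and so acts after DNA replication, and excision repair replaces damaged bases or short stretches of a strand.

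The study profiled sorted live immune cells of the mouse intestine by droplet single-cell RNA sequencing, with 1 library of WT mice and 1 of Dpf2 KO mice. Both groups had received 10 Gy of X-rays, so no unirradiated cells enter any comparison, and sorting had used GFP and tdTomato gates. Dpf2 is a subunit of the BAF chromatin remodelling complex. The sources used here do not say which part of Dpf2 was deleted or in which cells, how many mice of which age and sex were pooled, or when cells were taken. Dpf2 itself was at 33.3 UMIs per 1000000 (CPM, the unit of every level here) in WT from 1916 UMIs and at 19.6 in KO from 885, a ratio of 0.589 (95% interval 0.543 to 0.638). Whether the counted tags lie inside the deleted part is not known, so this value cannot test the label.

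The WT library held 10958 barcodes and 64786549 UMIs and the KO library 8794 and 49590755. Kept cells numbered 10259 and 8265, with medians of 4543 and 4112 UMIs, and the libraries shared 24 barcodes. A class name stands for clusters that resemble the named type by their leading genes. A cluster led by Il17a and Il23r and one with Foxp3 among its leading genes held a Cd3 UMI in 89.1% and 88.0% of cells and are named by those genes. T, NK, B and plasma cells, ILC2 and ILC3 each had between 9 and 13 of their own markers in over 10% of cells. The conventional dendritic cluster, led by Zfp366 and Ccl22, had 7 of 8 markers of the type 1 kind and 7 or 8 of 8 of the type 2 kind in over 10% of cells. Of the mature kind, whose list includes Ccl22, it had 4 of 8 in WT and 6 of 8 in KO. An unnamed cluster with Defa24 and B cell genes, at 5 WT and 332 KO cells, stayed out of every class. Both libraries held cells with Xist and no Y-linked UMIs (Xist-only, 2771 in WT, 2326 in KO) and cells with the reverse (Y-linked-only, 3626 and 2264).

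With 1 library per genotype no test was possible, and intervals cover counting error only. A gene was called higher or lower when 2 levels differed at least 1.5-fold, the 95% interval of their ratio left out 1, and both groups together held at least 50 UMIs. A level does not tell apart fewer expressing cells and fewer transcripts per cell.

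Dividing cells, those with at least 3 UMIs of Mki67 and Top2a together, were set apart because their share differed between the libraries. They made up 4.05% of WT cells (416 of 10259) and 1.996% of KO cells (165 of 8265). In T cells they made up 4.92% in WT and 1.67% in KO, and in plasma cells 9.47% and 3.35%. In conventional dendritic cells the order was turned, at 5.36% and 12.4%. A further 1108 WT and 626 KO cells held 1 or 2 UMIs of Mki67 and Top2a together and were counted as non-dividing. The non-dividing groups may therefore still hold cycling cells. With each cell thinned to 1000 UMIs, the share with an Mki67 or Top2a UMI was 5.63% and 2.51% in T cells, 7.27% and 3.57% in plasma cells, and 2.96% and 6.58% in conventional dendritic cells. This step dropped 38 WT and 23 KO T cells, 17 and 10 plasma cells, and 12 and 9 dendritic cells. B cells, with few dividing cells, gave 1.49% and 1.15%.

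The stretches before the start of 3 members are shown because each holds a motif form of the E2F factors, which drive genes of DNA replication, and all 3 members were called higher in dividing cells of both libraries. They are from RefSeq on GRCm38.p6, plus strand, 5′ to 3′, and capitals mark the E2F form. Chek2 is shown at chr5:110839771-110839898, Xrcc6 at chr15:82016263-82016368 and Brca2 at chr5:150522393-150522520. The Xrcc6 stretch precedes a RefSeq start and lies inside the span that GENCODE gives the gene, which begins at chr15:81987835.
Chek2: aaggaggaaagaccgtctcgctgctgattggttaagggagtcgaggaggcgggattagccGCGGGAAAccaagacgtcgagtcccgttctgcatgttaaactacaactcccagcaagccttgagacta
Xrcc6: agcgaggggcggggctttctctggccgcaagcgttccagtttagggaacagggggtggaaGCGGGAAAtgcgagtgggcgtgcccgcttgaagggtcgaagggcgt
Brca2: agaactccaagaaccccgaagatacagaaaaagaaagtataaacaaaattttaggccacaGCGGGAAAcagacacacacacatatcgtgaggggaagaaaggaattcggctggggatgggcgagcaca
A RefSeq promoter, 250 bases before to 50 after the start, was matched for 32 of the 37 members. The forms TTTCCCGC, TTTGGCGC, TTTCGCGC and TTTGCCGC, searched on both strands, were in 6 of them (Chek2, Mdc1, Xrcc6, Brca2, Lig1 and Msh6) and in 2.60% of 27025 genes. CCAAT was in 17 of 32 members and 41.1% of genes, and TTTGAA, the core of the CHR element, in 1 member and 20.2% of genes. A match describes the letters in a window, not binding.

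Most members were higher in dividing cells than in non-dividing cells of the same classes. The non-dividing level was weighted to the mix of classes, not of clusters, among the dividing cells. These were 391 cells of 6 classes in WT and 140 of 5 in KO. That mix differed between the libraries, with 133 T, 128 plasma and 35 conventional dendritic cells in WT and 19, 21 and 80 in KO, so the WT and KO ratios describe unlike groups of cells. In WT 27 of 37 members tested were higher and 0 lower in dividing cells, where 22.4% of genes were higher and 5.65% lower. In KO 18 of 33 members tested were higher and 1 lower in dividing cells, where 13.2% of genes were higher and 4.56% lower. The median log2 ratio of members was 0.58 in WT and 0.48 in KO, against 0.10 and 0.08 over all genes tested. By pathway, 9 of 11 signalling, 5 of 7 end joining, 6 of 7 recombination and 7 of 12 excision genes were higher in WT, and 6 of 11, 2 of 6, 4 of 5 and 6 of 11 in KO. Higher in both libraries were 18 of the 33 members tested in both, against 9.65% of genes. Dividing cells were deeper, with a median of 10562 against 3848 UMIs in WT T cells. With every cell thinned to 1000 UMIs, 9 members were called in WT and 0 in KO. TMM scaling moved all genes by -0.26 on the log2 scale in WT and -0.17 in KO, and 22 and 17 members were then called. In KO, 1 member was called among cells with Xist and no Y-linked UMIs and 3 among those with the reverse, each with fewer UMIs. Ratios called higher in KO that were then under 1 were those of Atm, at 0 and 0.336, and Prkdc, at 0.956 and 0.761, in both splits, of Chek1 (0.287) and Mre11a (0.935) in Xist-only cells, and of Atr (0.599) and Ung (0.821) in Y-linked-only cells.

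The 3 highest ratios in WT were those of recombination genes. Brca1 (chr11:101488764-101551955, minus strand, GRCm38), which promotes recombination at resected ends, was at 7.44 in non-dividing and 127 in dividing WT cells, a ratio of 17.0 (14.7 to 19.8). In KO it was at 7.46 in non-dividing and 90.0 in dividing cells, a ratio of 12.1 (9.41 to 15.5). Fancd2, a clamp of the Fanconi pathway for crosslinks, had a ratio of 10.3 (7.75 to 13.9) in WT and 5.08 (3.17 to 8.12) in KO. Both genes were called in both libraries. Brca2, a mediator of recombination, had ratios of 6.74 (5.03 to 9.03) and 4.01 (2.39 to 6.62). Rad54l, a DNA translocase of recombination, had 18.6 (12.6 to 28.0) in WT, and Palb2, which links Brca1 to Brca2, had 5.46 (3.54 to 8.39). Rad54l and Palb2 had too few UMIs in KO for a call. Blm, a helicase that dissolves joined molecules, was at 2.48 in WT and 2.42 in KO. Rad52, an annealing factor, was the recombination gene called in neither library, at 0.798 (0.474 to 1.27) and 0.840 (0.296 to 1.95).

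Among excision genes the widest contrast was that of Lig1 (chr7:13277283-13311433, plus strand), the ligase that joins replication fragments as well as repair patches. It was at 11.5 in non-dividing and 95 in dividing WT cells, a ratio of 8.26 (7.24 to 9.42). In KO it was at 10.5 in non-dividing and 55.6 in dividing cells, a ratio of 5.27 (4.07 to 6.84). Within conventional dendritic cells, which were compared in both libraries, Lig1 had WT and KO ratios of 4.61 (3.16 to 6.63) and 3.59 (2.57 to 5.01), whose intervals overlap. Parp1, which marks strand breaks with ADP-ribose chains, had ratios of 2.57 in WT and 2.20 in KO. Ung, which removes uracil, had 3.44 and 2.05, and Apex1, which cuts at the abasic site left behind, had 2.70 and 1.85. Xrcc1, a scaffold of single-strand break repair, had 2.78 and 2.39, and Msh6, a mismatch sensor, had 1.996 and 2.67. These 6 genes were called in both libraries. Xpa and Xpc, which verify and find lesions in nucleotide excision repair, were called in neither, with 0.969 and 1.16 in WT and 1.06 and 1.19 in KO.

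Damage signalling and end joining were split. Rad50, a subunit of MRN, had ratios of 3.73 (3.16 to 4.40) in WT and 2.29 (1.73 to 2.99) in KO, and Mre11a, its nuclease partner, 2.39 and 2.19. The kinase genes Atm, Atr, Chek1 and Chek2 lay between 1.94 and 3.59 in WT and between 1.54 and 2.37 in KO, and each was called in both. Trp53bp1, which favours end joining over resection, was at 1.20 and 0.915 and was not called. In end joining, Prkdc, the kinase held at broken ends, was at 2.32 and 2.32, and Xrcc6, a subunit of the Ku ring that binds ends, at 1.89 and 2.45. Dclre1c (chr2:3424131-3464130, plus strand), the Artemis nuclease that opens hairpin ends, was called in neither library, at 1.01 (0.863 to 1.18) and 1.22 (1.02 to 1.45). Nhej1 (chr1:74967139-75125200, minus strand), which bridges ends for ligation, was higher in dividing WT cells, at 1.58 (1.24 to 1.996), and lower in dividing KO cells, at 0.610 (0.434 to 0.839). The classes behind these values differ. In WT plasma cells, where 51.3% of genes were higher in dividing cells, the Nhej1 ratio was 3.61 (2.34 to 5.55). In KO plasma cells, with too few Nhej1 UMIs for a call, dividing cells held 6.67% of them (2 of 30) and 7.09% of all UMIs. In conventional dendritic cells the WT and KO ratios of Nhej1 were 0.922 (0.477 to 1.64) and 0.602 (0.407 to 0.865). Among Y-linked-only WT cells the class-matched ratio was 0.857. Called higher in neither library, of those tested in both, were 8 members: Trp53bp1, Rnf8, Dclre1c, Rad52, Ogg1, Lig3, Xpa and Xpc. Called higher in WT but not in KO were 9 members, Rnf168, Mdc1, Nbn, Nhej1, Xrcc5, Xrcc4, Ddb1 and the 2 not tested in KO, Rad54l and Palb2, and that difference was not tested. Lig4, the end-joining ligase, and Ercc1, a nuclease subunit of excision repair, were not called in WT, at 1.05 and 1.40, and had too few UMIs in KO. The E2F forms were in 5 of the 15 promoters of members higher in both libraries and in 0 of the 7 of those higher in neither, against 2.60% of genes. CCAAT was in 9 of the 15 and 4 of the 7, and TTTGAA in 0 and 1. These groups are small, and no difference between them was tested.

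**Figure D1:**
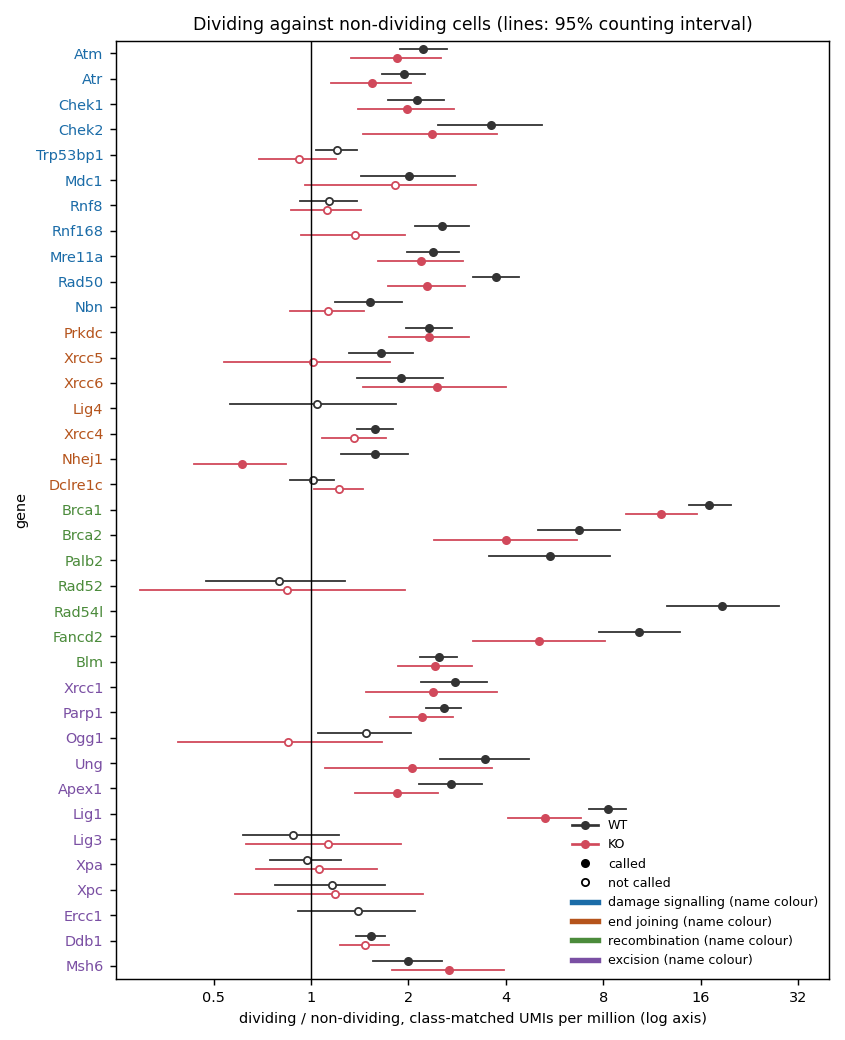
Ratio of the level in dividing cells to the class-matched level in non-dividing cells for each member (log axis), in WT (black) and KO (red), with 95% counting intervals and filled points for called members. Brca1 is at 17.0 in WT and 12.1 in KO, and Nhej1 at 1.58 and 0.610.

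Single classes were also compared. In WT T cells 18 of 33 members tested were higher and 0 lower in dividing cells, where 20.6% of genes were higher and 10.8% lower. Dividing cells made up 20.8% of the T cell cluster led by Pclaf and at most 1.30% of the other T cell clusters. With clusters weighted alike 7 members were called, with Mdc1 and Xrcc6 then under 1, and 4 with cells thinned to 1000 UMIs. Brca1 was at 7.63 in non-dividing and 200 in dividing T cells, a ratio of 26.2 (20.5 to 33.8). Dividing cells, 4.92% of WT T cells with 13.1% of their UMIs, held 79.8% of the Brca1 UMIs (324 of 406; exact binomial interval 75.6 to 83.6), 54.0% of those of Lig1 and 10.7% of those of Dclre1c. In the WT cluster led by Il17a and Il23r 8 of 19 members tested were higher and 0 lower in dividing cells, where 14% of genes were higher and 6.78% lower. In conventional dendritic cells of WT 10 of 21 members tested were higher and 1 lower in dividing cells, where 10.2% of genes were higher and 6.39% lower. In those of KO 9 of 21 members tested were higher and 1 lower in dividing cells, where 8.63% of genes were higher and 4.87% lower. The lower members were Dclre1c in WT, at 0.433 (0.239 to 0.726), and Nhej1 in KO, at 0.602 (0.407 to 0.865). In WT monocytes or macrophages 2 of 21 members tested were higher and 0 lower in dividing cells, where 4.33% of genes were higher and 3.54% lower. The higher ones were Lig1 and Ddb1, a subunit of a complex that senses ultraviolet damage.

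Plasma cells need their background beside the count. In WT plasma cells 27 of 31 members tested were higher and 0 lower in dividing cells, where 51.3% of genes were higher and 4.37% lower. In KO plasma cells 14 of 16 members tested were higher and 0 lower in dividing cells, where 43.7% of genes were higher and 5.17% lower. Over all genes tested the median log2 ratio in WT plasma cells was 0.43, and TMM scaling moved it by -0.71. Over both libraries, dividing cells made up 1.0% of the larger plasma cluster and 84.0% of the smaller one, led by Ighg2b and Mzb1. The plasma cell contrast is therefore largely one between these clusters. With the WT plasma clusters, of 1211 and 141 cells, weighted alike, 4 members were called, and the ratios of Atm, Nbn and Apex1 were 0.968, 0.776 and 0.598.

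Of 91 other listed genes of these pathways, 54 of 85 tested were higher in dividing WT cells and 30 of 71 in dividing KO cells, and 0 were lower in either, where 22.4% and 13.2% of all genes were higher. Pcna, the replication clamp, had ratios of 2.42 in WT and 1.62 in KO, and Rif1, which restrains resection, 2.07 and 1.53. H2afx, the histone marked at breaks, had 6.16 and 4.61 and was picked after its values were seen.

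Between genotypes, most members were not called in non-dividing cells. Over 11 classes, 206 pairs of a member and a class had enough UMIs, and 26 of them (12.6%) were called, 18 higher and 8 lower in KO, against 16.1% of such pairs over all genes. No class gave a call for 23 of the 37 members. In T cells 2 of 33 members tested were higher and 0 lower in KO, where 7.52% of genes were higher and 8.38% lower. In B cells 2 of 33 members tested were higher and 0 lower in KO, where 5.5% of genes were higher and 6.2% lower. In plasma cells 0 of 32 members tested were higher and 1 lower in KO, where 7.43% of genes were higher and 12% lower. These counts are near or under the background. In monocytes or macrophages 6 of 27 members tested were higher and 0 lower in KO, where 11.2% of genes were higher and 6.37% lower, and in conventional dendritic cells 4 of 26 members tested were higher and 0 lower in KO, where 8.02% of genes were higher and 9.01% lower. In both of these the share higher was above the background and the share lower was under it, though no test of that was possible. The members' median log2 ratio was 0.01 in T cells, -0.03 in B cells, -0.01 in plasma cells, 0.08 in monocytes or macrophages and -0.02 in conventional dendritic cells, against 0.00, 0.02, -0.08, 0.05 and -0.02 over all genes tested.

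**Figure D2:**
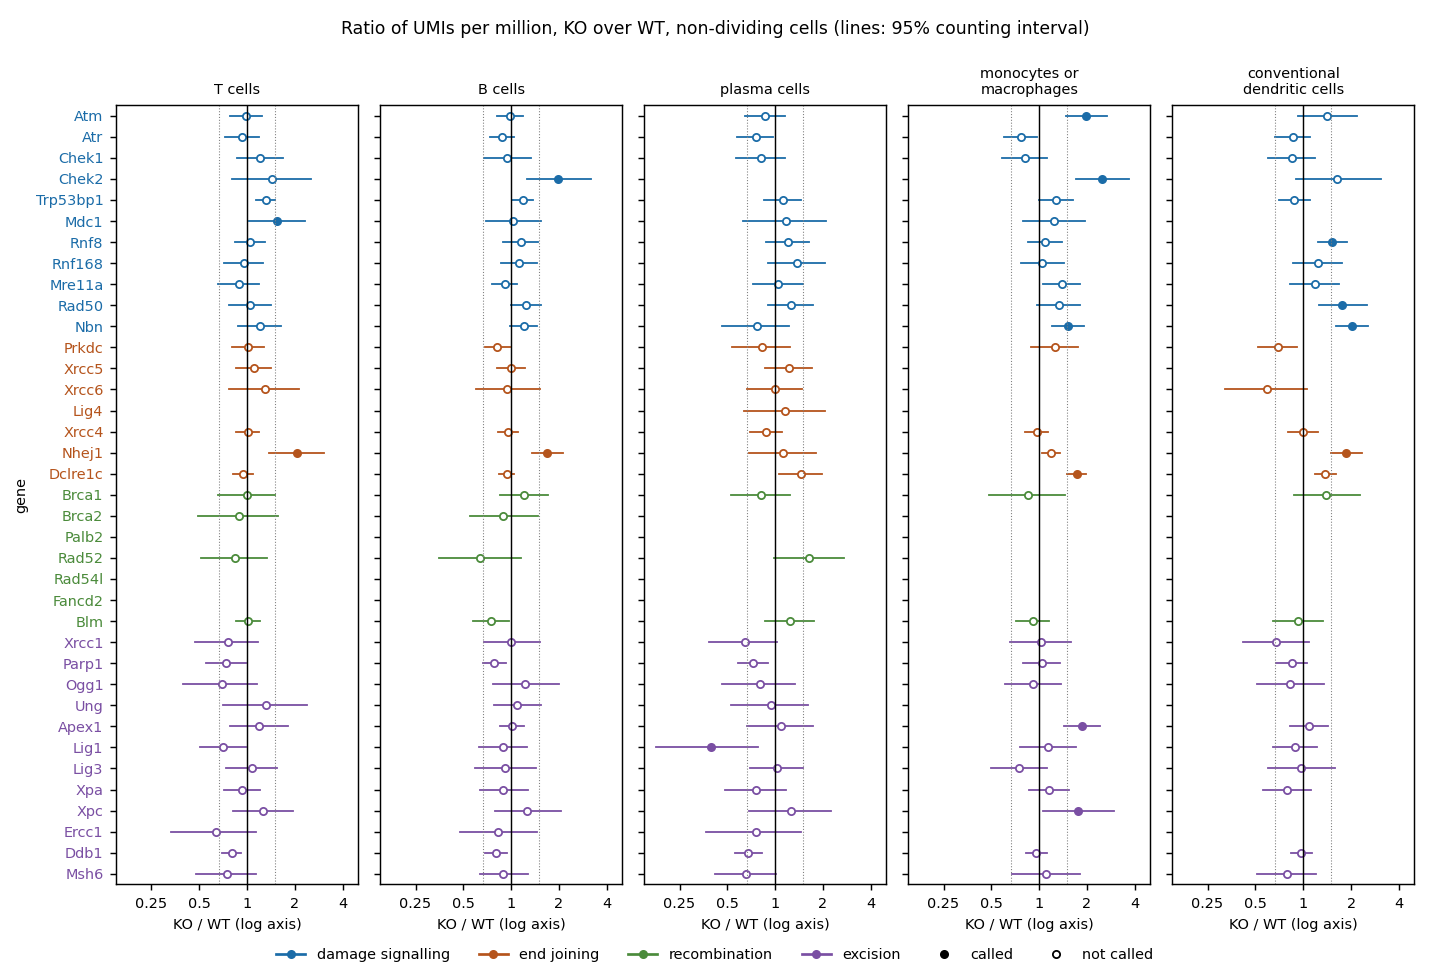
Ratio of KO to WT levels in non-dividing cells of 5 classes (log axis) for each member with at least 50 UMIs, coloured by pathway, with 95% counting intervals, filled points for called members and dotted lines at a 1.5-fold difference. Most points lie between the dotted lines, with 6 filled points in monocytes or macrophages and 1 in plasma cells.

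Nhej1 was called in 6 classes, more than any other member. It was at 5.40 in WT and 11.05 in KO T cells, a ratio of 2.05 (1.38 to 3.03). In B cells it was at 25.4 in WT and 42.8 in KO, a ratio of 1.69 (1.36 to 2.11), and in conventional dendritic cells at 20.8 in WT and 38.8 in KO, a ratio of 1.86 (1.49 to 2.33). Neutrophils held its highest level in both libraries, 106 in WT and 182 in KO, a ratio of 1.71 (1.24 to 2.41). In these 4 classes and in the cluster led by Il17a and Il23r, at 6.35 in WT and 19.1 in KO from 22 and 37 UMIs, the KO level was the higher one. In ILC3 it was the lower one, at 55.1 in WT and 22.4 in KO, a ratio of 0.407 (0.246 to 0.672) from 36 and 33 UMIs, though it was 1.53 from 16 UMIs among cells with Xist and no Y-linked UMIs. In monocytes or macrophages, at 51.5 in WT and 60.8 in KO, and in plasma cells, at 5.26 in WT and 5.89 in KO, it was not called.

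Monocytes or macrophages had the most calls by number of the classes compared. ILC3 and neutrophils, with fewer members tested, had a larger share of them called. Chek2, a checkpoint kinase downstream of ATM, was at 4.88 in WT and 12.1 in KO, a ratio of 2.48 (1.71 to 3.65). Atm was at 8.36 in WT and 16.6 in KO, a ratio of 1.98 (1.48 to 2.68). Nbn, the adaptor of MRN, was at 14.9 in WT and 22.5 in KO, a ratio of 1.52 (1.20 to 1.92). All 3 act in damage signalling, whose Atr was at 20.9 in WT and 15.9 in KO and was not called. Dclre1c was at 39.96 in WT and 68.7 in KO, a ratio of 1.72 (1.501 to 1.97). Apex1 was at 10.8 in WT and 20.05 in KO, a ratio of 1.86 (1.43 to 2.42), and Xpc at 3.14 in WT and 5.48 in KO, a ratio of 1.75 (1.06 to 2.93) from 27 and 44 UMIs. The clusters of the class were in other proportions, with 1166 WT and 677 KO cells in the largest, 375 WT and 229 KO in one led by Chil3 and 94 WT and 219 KO in one led by C1qa. B cell markers in this class summed to 166 in WT and 389 in KO, higher in KO for 13 of 13 and at 0 for none, and fibroblast markers to 74.7 in WT and 10.96 in KO. Their part in the result was not tested. Among cells with Xist and no Y-linked UMIs 3 members were called, and 3 among those with the reverse.

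In conventional dendritic cells the other called members act in damage signalling. Nbn was at 19.5 in WT and 39.3 in KO, a ratio of 2.02 (1.61 to 2.54). Rad50 was at 8.98 in WT and 15.8 in KO, a ratio of 1.76 (1.248 to 2.52), and Rnf8, a ubiquitin ligase at breaks, at 26.1 in WT and 39.8 in KO, a ratio of 1.52 (1.24 to 1.88). These calls depend on the clustering: at a finer one the class kept 153 WT and 109 KO cells, and the ratios were 2.59 for Rad50, 1.33 for Nbn, 0.879 for Rnf8 and 0.887 for Nhej1. B cell markers summed to 238 in WT and 379 in KO, higher for 10 of 13, and monocyte markers to 1972 in WT and 1237 in KO, and their part was not tested. Prkdc, at 20.3 in WT and 14.0 in KO, did not reach the 1.5-fold size.

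Calls in lymphoid classes often rested on few UMIs. In T cells Mdc1, a scaffold on marked chromatin, was at 6.05 in WT and 9.35 in KO, a ratio of 1.55 (1.03 to 2.30) from 65 and 44 UMIs. T cell clusters differed in size between the libraries, with 994 WT and 270 KO cells in one led by Klrc1 and Cd8a and 187 WT and 293 KO in one led by Lef1. In T cells B cell markers summed to 106 in WT and 199 in KO, NK cell markers to 984 in WT and 334 in KO and epithelial markers to 22.9 in WT and 114 in KO, and their part was not tested. Trp53bp1 was at 53.1 in WT and 69.3 in KO T cells, a ratio of 1.30 (1.13 to 1.497), and was not called. Atm, Prkdc, Xrcc4 and Blm had T cell ratios of 0.987, 1.01, 1.01 and 1.01. In B cells Chek2 was at 5.92 in WT and 11.7 in KO, a ratio of 1.97 (1.26 to 3.18), and fibroblast markers there summed to 54.7 in WT and 13.6 in KO. In plasma cells Lig1 was at 5.35 in WT and 2.10 in KO, a ratio of 0.393 (0.179 to 0.778) from 56 and 10 UMIs, and B cell markers summed to 601 in WT and 1591 in KO. The part of either marker list was not tested.

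The smaller classes had fewer members to compare. In the cluster led by Il17a and Il23r 2 of 21 members tested were higher and 2 lower in KO, where 6.81% of genes were higher and 7.59% lower. Dclre1c was the other higher one, at 30.3 in WT and 49.1 in KO, and the lower ones were Lig1 and Xpc, at ratios of 0.294 (0.134 to 0.578) and 0.375 (0.161 to 0.780). In ILC3 1 of 10 members tested were higher and 3 lower in KO, where 6.39% of genes were higher and 7.55% lower. Dclre1c was higher there, at 1.75 (1.02 to 3.18), and besides Nhej1 the lower ones were Prkdc, at 0.521 (0.288 to 0.952), and Parp1, at 0.592 (0.360 to 0.985). In NK cells 0 of 12 members tested were higher and 1 lower in KO, where 5.97% of genes were higher and 5.87% lower, the lower one being Prkdc, at 30.3 in WT and 15.3 in KO, with a ratio of 2.71 from 10 UMIs among cells with Xist and no Y-linked UMIs. In the Foxp3 cluster 0 of 7 members tested were higher and 1 lower in KO, where 7.99% of genes were higher and 9.62% lower, the lower one being Xrcc4, which stabilises the end-joining ligase, at 70.7 in WT and 38.6 in KO. In neutrophils 1 of 3 members tested were higher and 0 lower in KO, where 14.1% of genes were higher and 9.5% lower, and in ILC2 0 of 2 members tested were higher and 0 lower in KO, where 10.2% of genes were higher and 6.74% lower. B cell markers summed to 100 in WT and 329 in KO in the cluster led by Il17a and Il23r, 181 in WT and 365 in KO in ILC3, 118 in WT and 238 in KO in NK cells, 188 in WT and 396 in KO in the Foxp3 cluster and 258 in WT and 532 in KO in neutrophils. Fibroblast markers summed to 56.5 in WT and 10.9 in KO in the cluster led by Il17a and Il23r, T cell markers to 543 in WT and 260 in KO in ILC3 and macrophage markers to 265 in WT and 665 in KO in neutrophils. The part of these lists in the results was not tested.

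**Figure D3:**
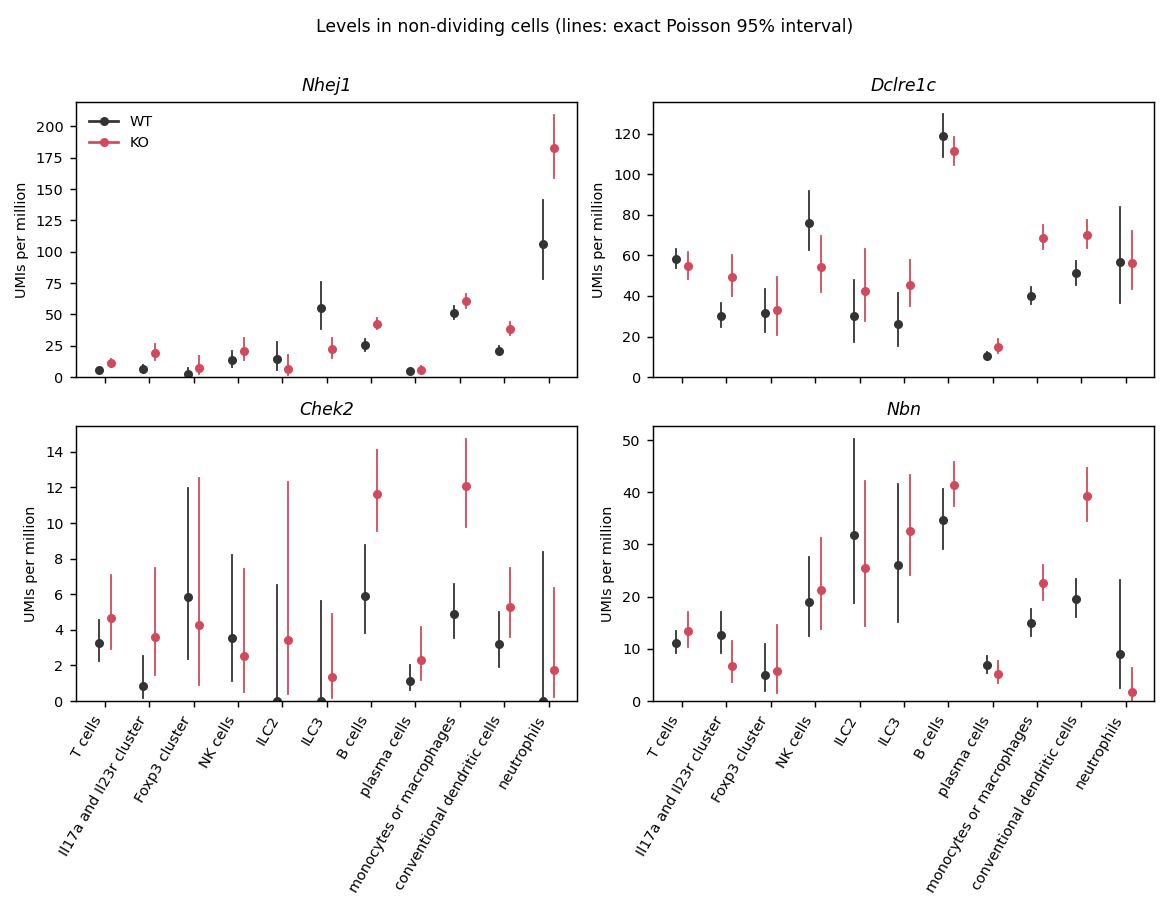
Levels of Nhej1, Dclre1c, Chek2 and Nbn in CPM in non-dividing cells of each class, in WT (black) and KO (red), with exact Poisson 95% intervals and an axis that starts at 0 in each panel. Nhej1 is highest in neutrophils and Dclre1c in B cells, at 119 in WT and 111 in KO.

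With dividing cells kept in their classes, other members were called. In all T cells 1 of 35 members tested were higher and 4 lower in KO, where 7.56% of genes were higher and 10.8% lower. Brca1 was at 32.8 in WT and 16.3 in KO among all T cells, a ratio of 0.495 (0.385 to 0.631), but at 7.63 in WT and 7.65 in KO among non-dividing ones, a ratio of 1.003 (0.658 to 1.501). Lig1 was at 28.3 in WT and 13.8 in KO among all T cells, a ratio of 0.488 (0.371 to 0.635), and at 14.98 in WT and 10.6 in KO among non-dividing ones, a ratio of 0.709 (0.506 to 0.980). Both genes were called lower in KO over all T cells and neither over non-dividing ones. Rad54l was at 4.20 in WT and 0.813 in KO among all T cells, from 52 and 4 UMIs. In all plasma cells 0 of 36 members tested were higher and 6 lower in KO, where 6.46% of genes were higher and 16.1% lower. In all conventional dendritic cells, where KO held more dividing cells, 7 of 31 members tested were higher and 0 lower in KO, where 7.74% of genes were higher and 8.5% lower. Brca1 was at 10.2 in WT and 20.6 in KO there, a ratio of 2.02 (1.51 to 2.74), against 1.40 (0.872 to 2.27) without dividing cells. Over all kept cells of the libraries 5 of 37 members tested were higher and 2 lower in KO, where 9.75% of genes were higher and 14.6% lower, and the lower ones were Rad54l and Lig1. In all T cells and all plasma cells the share lower was near that over all genes. Over all kept cells the share lower was under that over all genes. The share higher was above it in all conventional dendritic cells and over all kept cells, and no test of these shares was possible. T cells were 26.3% of WT and 13.8% of KO cells and B cells 10.6% and 28.8%, a mix that enters the values over all cells.

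**Figure D4:**
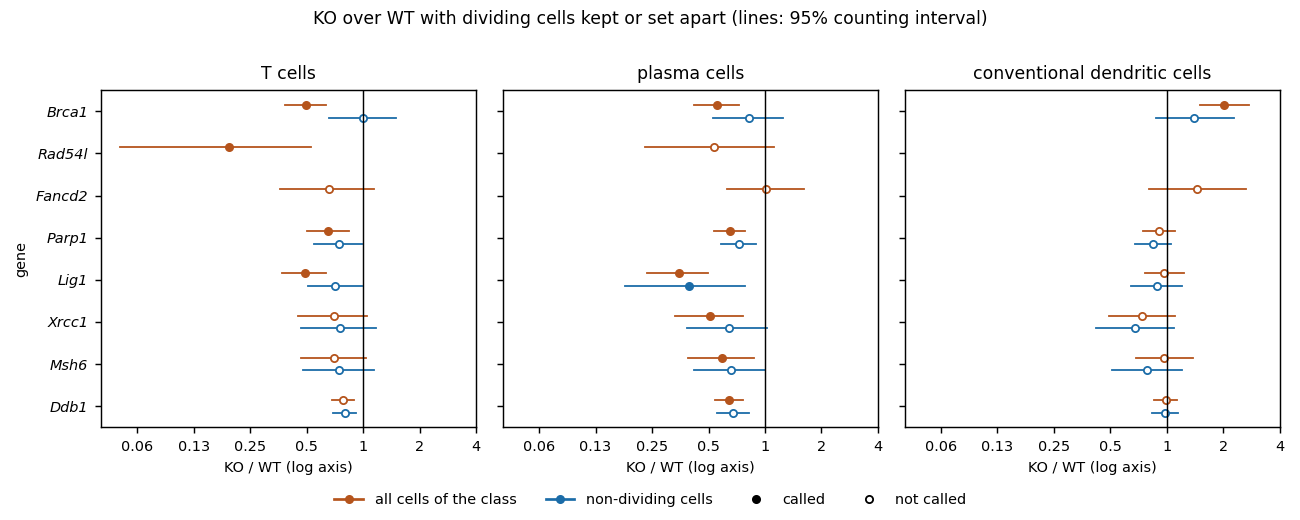
Ratio of KO to WT levels of 8 members (log axis) in 3 classes, over all cells of the class (orange) and over non-dividing cells (blue), with 95% counting intervals and filled points for called members. In T cells Brca1 is at 0.495 with and 1.003 without dividing cells, and in conventional dendritic cells at 2.02 and 1.40.

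Among dividing cells themselves, 2 classes allowed a comparison of the genotypes. Neither comparison was repeated under other processing, and the kinds of cell within each class were not matched. In dividing conventional dendritic cells, 35 in WT and 80 in KO, Dclre1c was at 22.2 in WT and 94.0 in KO, a ratio of 4.24 (2.48 to 7.78) from 15 and 137 UMIs. Rnf8 was at a ratio of 2.40 (1.28 to 4.89), and Prkdc was the lower one, at 50.2 in WT and 22.6 in KO, a ratio of 0.451 (0.270 to 0.750). Of all genes tested there 9.96% were higher and 9.5% lower in KO. Most members tested there were not called: Atr, Mre11a, Rad50, Nbn, Xrcc4, Brca1, Blm, Parp1, Apex1, Lig1 and Ddb1. In dividing plasma cells, 128 in WT and 21 in KO, Atm was at 31.7 in WT and 66.2 in KO, a ratio of 2.09 (1.2503 to 3.38), and Trp53bp1 at a ratio of 2.26 (1.23 to 3.99), where 8.29% of genes were higher and 11.9% lower. No other member was called there. Tested and not called were Atr, Chek1, Rnf168, Mre11a, Rad50, Nbn, Prkdc, Xrcc5, Xrcc4 and Dclre1c. So were Brca1, Brca2, Fancd2, Blm, Xrcc1, Parp1, Apex1, Lig1 and Ddb1.

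The other listed genes of the pathways were compared between genotypes in non-dividing cells too. In T cells 3 of 72 were higher and 4 lower in KO (7.52% and 8.38% of genes), with Bard1, the partner of Brca1, at 2.04 (1.37 to 3.03) and Rpa1, a subunit of the single-strand binding complex, at 0.655 (0.551 to 0.775). In B cells 2 of 66 were higher and 2 lower (5.5% and 6.2% of genes), with Aplf, an end-joining factor, at 3.33 (1.77 to 6.95) and Neil1, a glycosylase, at 0.573 (0.443 to 0.743). In plasma cells 6 of 56 were higher and 4 lower (7.43% and 12% of genes). In monocytes or macrophages 10 of 57 were higher and 2 lower (11.2% and 6.37% of genes), with Topbp1, an activator of ATR, at 1.61 (1.27 to 2.05) and Polq, the polymerase of microhomology end joining, at 0.521 (0.408 to 0.661). In conventional dendritic cells 2 of 55 were higher and 3 lower (8.02% and 9.01% of genes). In each of these 5 classes the shares are near or under those over all genes, except the higher ones in plasma cells and in monocytes or macrophages.

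Across classes, the highest level was in the same class in WT and KO for 23 of the 36 members compared, against 59.7% of all genes with at least 20 UMIs in 2 or more classes. That class was B cells for 12 of the 36, against 13.5% of those genes. In 5 of the 36 that class stood apart from the next by its interval in both libraries, against 19.2%. Dclre1c was at 119 in WT and 111 in KO B cells and at 10.3 in WT plasma cells, its lowest class. Xrcc5, the other Ku subunit, was at 32.9 in WT and 32.7 in KO B cells and at 2.09 in WT monocytes or macrophages. Apex1 was at 44.5 in WT and 44.9 in KO B cells, and Ung at 12.1 in WT and 13.2 in KO B cells. The fifth is Nhej1 in neutrophils. Plasma cells carry many immunoglobulin transcripts (37.6% of WT and 44.5% of KO UMIs). Leaving these out gave the same count of 23 but not the same members. Prkdc and Brca2 then no longer had the same highest class in WT and KO. In both libraries Parp1 and Ercc1 moved from B cells to plasma cells, and Ogg1 and Lig3 were highest in plasma cells. B cells were then the shared class only for Atm, Atr, Mre11a, Nbn, Xrcc5, Dclre1c, Ung and Apex1. The share over all genes was not counted without immunoglobulin, so this shorter list has no background beside it. Rnf8, Atr, Prkdc, Xrcc4, Brca2 and Parp1 overlap another annotated gene on their strand, so their counts could have been split.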

How the data were processed

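Each deposited file holds UMI counts per gene and barcode, not normalized. The authors used Cell Ranger 7.0.0 and GRCm38, per the submitters' processing notes. Those notes name no annotation, and the treatment of introns was not given in the sources used here. Cells with at least 200 genes, 500 UMIs and at most 20% mitochondrial UMIs were kept. Scrublet doublets, 5.85% of the WT and 4.79% of the KO cells within these limits, were left out. Cells of both libraries were clustered together (scanpy 1.11.5, leidenalg 0.10.2, resolution 1). Clusters were named from marker lists, by a rule written after the clusters had been seen, and 402 WT and 590 KO cells stayed unnamed. UMIs were summed per class and library. Levels have exact Poisson intervals and ratios conditional binomial ones (scipy 1.17.1). Median log2 ratios add 10 CPM to each level. TMM factors came from edgeR 4.0.16. Members called in a class, or among the 3 of their pathway with the most UMIs there, could be named; a member outside this rule was picked after its values were seen. The members, lists and rules were chosen with earlier results of these data known. The alternatives tried are other scalings, minima, fold sizes, clusterings, doublet handling, dividing cutoffs and splits by sex-linked UMIs.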

Additional observations from a re-analysis of the deposited data

Results flagged for a closer look

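The KO to WT ratio of Nhej1 went opposite ways in different classes. It was 2.05 in T cells, 3.02 in the cluster led by Il17a and Il23r, 1.69 in B cells, 1.86 in conventional dendritic cells and 1.71 in neutrophils, but 0.407 in ILC3. For Xpc it was 0.375 in the cluster led by Il17a and Il23r and 1.75 in monocytes or macrophages. The ratio of Nhej1 in dividing to class-matched non-dividing cells was 1.58 in WT and 0.610 in KO. Dividing cells were mostly T and plasma cells in WT (133 and 128 of 391) and mostly conventional dendritic cells in KO (80 of 140), and within that class the ratio was 0.922 in WT and 0.602 in KO. In plasma cells, dividing cells held 41.5% of the Nhej1 UMIs in WT (39 of 94) and 6.67% in KO (2 of 30). They held 16.4% and 7.09% of all UMIs of the class. With 1 library per genotype, none of these differences between classes or libraries was tested.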

How the results depend on the processing

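No paired analysis was possible because each genotype has 1 library. Depth limits what can be compared, as a call needs 50 UMIs and an alternative that left under 10 UMIs for a gene gave no value. Members called, main against alternatives, were 2 in T cells, 2 in B cells, 1 in plasma cells, 6 in monocytes or macrophages and 4 in conventional dendritic cells between genotypes, and 18 in dividing T cells and 27 in dividing plasma cells of WT, 27 in all dividing WT and 19 in all dividing KO cells. With doublets kept, the count was 3 in plasma cells. With division set at 5 UMIs, the count was 3 in plasma cells. Without cells of 1 or 2 such UMIs, the count was 2 in plasma cells. With TMM, counts were 1 in T cells and 2 in plasma cells. With means of cell shares, counts were 4 in T cells, 4 in B cells, 5 in plasma cells and 7 in dendritic cells. With cells thinned to 1000 UMIs, counts were 0 in T cells, 1 in B cells, 0 in plasma cells, 1 in monocytes or macrophages, 0 in dendritic cells, 4 in dividing T cells, 1 in dividing plasma cells, 9 in dividing WT cells and 0 in dividing KO cells. With no UMI minimum, the count was 2 in plasma cells. With a minimum of 200 UMIs, counts were 0 in T cells, 1 in B cells, 0 in plasma cells, 9 in dividing T cells, 8 in dividing plasma cells and 11 in dividing KO cells. At 2-fold, counts were 1 in T cells, 0 in B cells, 1 in monocytes or macrophages and 1 in dendritic cells. At the smaller fold size tried, counts were 6 in T cells, 4 in B cells and 5 in plasma cells. At resolution 0.5, the count was 2 in plasma cells. At resolution 2, the count was 2 in dendritic cells. With clusters weighted alike, counts were 1 in T cells, 7 in dividing T cells and 4 in dividing plasma cells. In Xist-only cells, counts were 1 in T cells, 3 in monocytes or macrophages, 2 in dendritic cells, 8 in dividing T cells, 13 in dividing plasma cells and 1 in dividing KO cells. In Y-linked-only cells, counts were 1 in T cells, 3 in monocytes or macrophages, 2 in dendritic cells, 9 in dividing T cells, 6 in dividing plasma cells and 3 in dividing KO cells. Without immunoglobulin, the count was 3 in plasma cells. With dividing cells kept, counts were 5 in T cells, 6 in plasma cells and 7 in dendritic cells. Leaving out immunoglobulin and keeping dividing cells were chosen after seeing the data. Of 2103 values of called members under alternatives, 1624 kept direction and call, 446 kept direction only and 33 turned direction. The 1624 include values with no UMI minimum and at the smaller fold size, where a call cannot be lost. Some of the comparisons also share cells, so these counts are not a measure of stability. Values that turned are given with UMIs in parentheses, or members for medians. With cells thinned to 1000 UMIs, the ratio in dividing KO cells was for Atm 0.845 (31), Atr 0.713 (30), Blm 0.446 (34), Apex1 0.600 (17), and the ratio in dividing T cells was for Atm 0.793 (75), Mre11a 0.976 (41), Brca2 0 (13), Xrcc1 0 (16). With a minimum of 200 UMIs, the median log2 ratio was for NK cells 0.19 (1), ILC3 0.32 (1). At resolution 2, the ratio in dendritic cells was for Rnf8 0.879 (98), Nhej1 0.887 (25). With clusters weighted alike, the ratio in dividing T cells was for Mdc1 0.935 (48), Xrcc6 0.984 (38), and the ratio in dividing plasma cells was for Atm 0.968 (79), Rnf8 0.873 (51), Nbn 0.776 (52), Xrcc6 0.923 (20), Ung 0.853 (42), Apex1 0.598 (64), Msh6 0.948 (19). In Xist-only cells, the ratio in ILC3 was for Nhej1 1.53 (16), and the ratio in NK cells was for Prkdc 2.71 (10), and the ratio in dividing KO cells was for Atm 0 (19), Chek1 0.287 (23), Mre11a 0.935 (31), Prkdc 0.956 (37), and the median log2 ratio was for NK cells 0.23 (2), ILC3 0.14 (1). In Y-linked-only cells, the ratio in dividing KO cells was for Atm 0.336 (12), Atr 0.599 (43), Prkdc 0.761 (40), Ung 0.821 (11), and the ratio in dividing T cells was for Mdc1 0.643 (27), and the ratio in dividing WT cells was for Nbn 0.981 (155), Xrcc5 0.903 (136), Nhej1 0.857 (222), and the median log2 ratio was for ILC3 0.21 (1). The cause was not tested.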
